A study of Nothobranchius furzeri with 20 samples.

Results

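In skin of the turquoise killifish Nothobranchius furzeri, 134 genes had higher counts in each of 5 libraries from fish of 27 weeks than in any of 15 libraries from fish of 9 weeks. They were chosen from 26739 listed genes by their own counts: reads scaled to an equal library total (CPM), taken as log2(CPM + 1), with a mean of at least 1 CPM over 20 libraries, which 17060 genes reached. The rule allowed 200 genes, ranked by the difference of means, and 134 met it, 0.785% of those 17060. The opposite separation, every library at 27 weeks below every library at 9 weeks, held for 28 genes, or 0.164%. Because age chose the genes, their difference between 27 and 9 weeks is a description and not a test.

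Groups were 27-week fish given rotenone at 1% of LC50, and 9-week fish given 0.1%, 1% or 10%, with 5 libraries each; all were males of the strain MZM-04/10p, and all received rotenone. LC50 is the median lethal concentration. The labels do not state that each library is another fish, so the spread given here is that between libraries. The older fish had 1 dose only, so age is matched for dose against the 9-week 1% group alone.

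The turquoise killifish is an annual fish of ephemeral pools with a very short lifespan, and it is used as a vertebrate model of ageing. Rotenone is a plant compound that blocks mitochondrial complex I, the entry point for electrons from NADH. Fish skin holds a mucus-producing living epidermis over a collagen-rich dermis with scales, pigment cells, vessels and immune cells. In RNA from a whole piece of skin, fewer cells of a type and less RNA per cell cannot be told apart. Genes are listed by identifier alone, and 0 of 26739 identifiers matched the gene names at hand, so the genes cannot be sorted by function and the tissue label could not be checked against markers. Only 2 identifiers are printed, and other genes are given by their rank in the difference between ages.

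Libraries held 21770720 to 29017737 reads counted on genes. Replicates 1 and 4 at 0.1% stood apart on the first principal component of the genes with a mean of at least 1 CPM, at 108 and 89.0, while the other 18 libraries lay between -25.9 and 23.0. The 10 most abundant genes took 13.9% ± 0.419 of reads at 27 weeks (SD, n = 5), and at 9 weeks 17.9% ± 4.90 at 0.1%, 17.48% ± 5.11 at 1% and 21.3% ± 1.60 at 10%. When a few genes take fewer reads, CPM of all other genes rises. Whether the shares of these 10 genes account for a shift of other genes here was not tested. The median of the 17060 genes was itself 0.12 higher at 27 weeks on the log2(CPM + 1) scale. TMM factors, which rescale each library so that most genes keep their level, brought this median to 0.00, and results are therefore given with both scalings.

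Among the 134 genes the difference of means had a median of 0.54, from 0.26 to 1.70, on the log2(CPM + 1) scale, and with TMM factors the median was 0.41. As plain ratios of mean CPM, 27 weeks over the 15 younger libraries, the values ran from 1.20 to 4.61 with a median of 1.46. Only 16 genes reached 2-fold and 3 reached 3-fold, while 129 reached 1.25-fold. Most of the genes thus differed by a modest amount. At 27 weeks 19 genes lay below 10 CPM, 82 between 10 and 100, 30 between 100 and 1000, and 3 above 1000. Together they took 2.19% ± 0.112 of reads at 27 weeks (SD, n = 5), and at 9 weeks 1.53% ± 0.0973 at 0.1%, 1.60% ± 0.105 at 1% and 1.52% ± 0.123 at 10%. The lowest sum at 27 weeks was 2.08% and the highest at 9 weeks 1.74%. The rule fixes in advance that these ranges cannot overlap, because each of the genes is separated on its own. The 3 most abundant genes supplied 54.3% of the sum at 27 weeks.

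The gap between the lowest library at 27 weeks and the highest at 9 weeks was small for most of them, with a median of 0.07 on the log2(CPM + 1) scale and a largest value of 0.60. In the gene just inside the rule these libraries had 14.17 and 14.17 CPM, a gap of 0.00012, and in the gene just outside it 1608 and 1610 CPM. Within 0.01 of the boundary 14 genes lay inside and 15 outside, so the list has no natural edge.

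**Figure D1:**
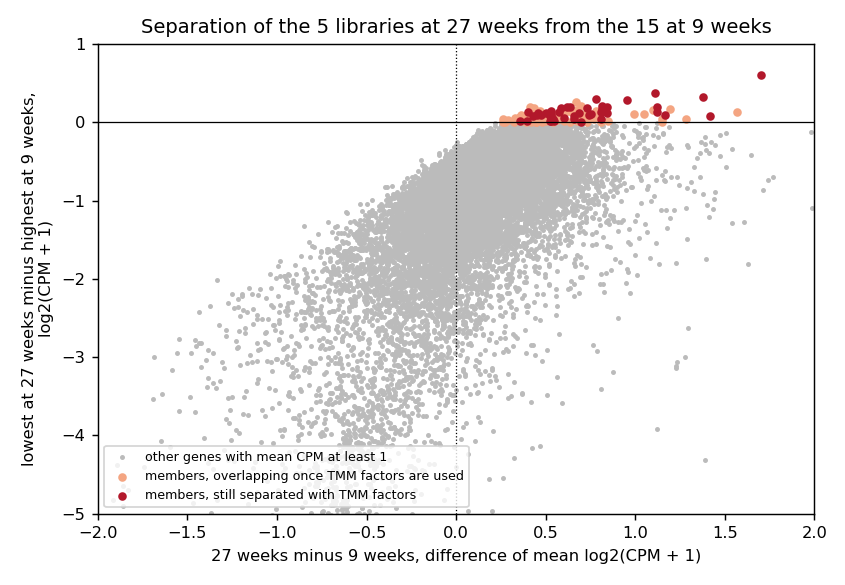
Each point is a gene with a mean of at least 1 CPM, placed by the difference of group means (x axis) and by the gap between the lowest library at 27 weeks and the highest at 9 weeks (y axis), both in log2(CPM + 1); 348 genes lie outside the axes. The 134 genes sit above the line at 0, close to it, and the 44 that stay separated with TMM factors are drawn in dark red.

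The largest difference was that of Nfu_g_1_022472. Its libraries at 27 weeks had 12.1, 18.02, 15.8, 11.9 and 32.9 CPM. At 9 weeks it had 4.28, 6.12, 4.27, 4.85 and 6.57 CPM at 0.1%, 3.04, 3.87, 7.49, 5.06 and 4.41 CPM at 1%, and 3.66, 2.82, 2.89, 4.89 and 5.47 CPM at 10%. Replicate 5 was the highest at 27 weeks and stood well above the other 4, yet the lowest of these still exceeded the highest younger library. The 3 younger groups overlapped each other, with means of 5.22 ± 1.07, 4.77 ± 1.69 and 3.95 ± 1.19 CPM from the lowest to the highest dose (SD, n = 5 each), against 18.1 ± 8.63 CPM at 27 weeks. The fitted log2 change at 1%, 27 over 9 weeks, was 1.91 (SE 0.32), and 1.55 without replicate 5 at 27 weeks. With TMM factors the groups stayed apart, at 10.54 CPM for the lowest library at 27 weeks against 7.47 CPM for the highest at 9 weeks. No dose step among the younger fish passed the test (edgeR quasi-likelihood, Benjamini-Hochberg adjusted p = 0.952 for 10% against 1%, 0.626 for 1% against 0.1% and 0.624 for 10% against 0.1%).

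The most abundant of the 134 was Nfu_g_1_012319, 17th of all listed genes by mean CPM. It had 5209, 5579, 4701, 4716 and 5321 CPM at 27 weeks. At 9 weeks its 5 libraries had means of 3652 ± 345 CPM at 0.1%, 3740 ± 223 CPM at 1% and 3940 ± 454 CPM at 10% (SD, n = 5), and the highest single value, 4617 CPM, was at 10%. Its groups overlapped with TMM factors, when the lowest library at 27 weeks had 4172 CPM and the highest at 9 weeks 5265 CPM. Its separation from every younger library therefore holds for a share of all reads and not for a level relative to most genes. The fitted log2 change, which uses TMM factors, differed between the younger groups. For 27 weeks it was 0.40 (SE 0.10) against 1%, 0.33 (SE 0.14) against 0.1% and 0.11 (SE 0.10) against 10%. Per kilobase of gene length (1389 bases) it stood at 3675 RPKM at 27 weeks, against 12.8 RPKM for Nfu_g_1_022472 (1419 bases). For Nfu_g_1_012319 the dose steps gave an edgeR adjusted p of 0.0806 for 10% against 1%, 0.747 for 1% against 0.1% and 0.389 for 10% against 0.1%. With DESeq2 the step of 10% against 1%, with a log2 change of 0.29, had an adjusted p of 0.0203.

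**Figure D2:**
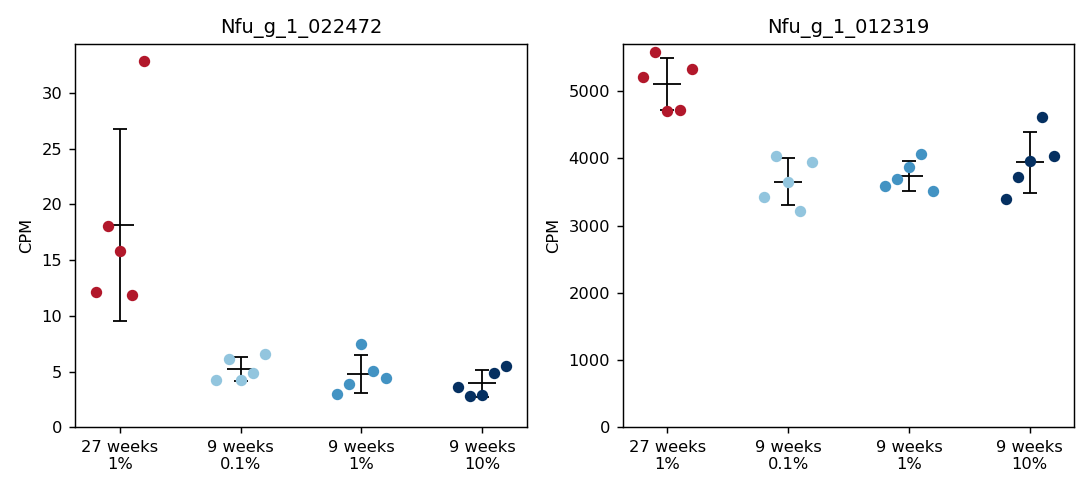
CPM by library (points) of the gene with the largest difference and of the most abundant gene, with the mean and SD of each group of 5 libraries (bars); the y axes start at 0. Nfu_g_1_022472 lies between 11.9 and 32.9 CPM at 27 weeks and at most at 7.49 CPM at 9 weeks, while Nfu_g_1_012319 lies at least at 4701 CPM and at most at 4617 CPM.

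Other genes near the top of the ranking differed in how steady they were. The gene ranked 4 had the largest ratio, 4.61, but few reads, with 2.81, 6.27, 2.60, 2.45 and 4.86 CPM at 27 weeks, against a range of 0.300 to 1.77 CPM and a median of 0.633 CPM over the 15 younger libraries. The gene ranked 3 had 99.3, 241, 114, 106 and 121 CPM at 27 weeks, against 17.4 to 93.7 CPM with a median of 47.4 at 9 weeks. Replicate 2 was the high library for both. The gene ranked 5 had 778, 531, 572, 516 and 839 CPM at 27 weeks, against 92.3 to 500.0 CPM at 9 weeks with a median of 262. Both ends of that younger range came from the 1% group. The gene ranked 12 was steadier, with 22.7, 17.2, 15.3, 15.6 and 17.2 CPM at 27 weeks and 3.52 to 11.6 CPM at 9 weeks. Across the 134 genes the highest library at 27 weeks was a median of 1.23 times the lowest, and 6 genes reached 2 times.

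With TMM factors 44 of the 134 genes (32.8%) kept every library at 27 weeks above every library at 9 weeks, and 90 did not. The separation then held for 53 of 17032 genes, or 0.311%, in the higher direction and for 39, or 0.229%, in the lower direction, so the excess of higher over lower genes seen with column totals, 134 to 28, was much reduced. All 134 genes had the higher mean at 27 weeks here too, with differences from 0.13 to 1.58. A factor acts on all genes of a library alike, and the median of all genes moved only from 0.12 to 0.00. The smallest difference with column totals was 0.26, so this outcome was fixed by the column totals and is no second test. Of the 90 genes, 67 had 1 to 3 younger libraries at or above the lowest library at 27 weeks, and the most was 7. Replicate 5 at 0.1% was such a library for 51 genes and replicate 2 at 0.1% for 31. Their TMM factors, by which CPM are divided, were 0.880 and 0.933, against 1.02 to 1.13 at 27 weeks. Both libraries are thereby raised against the older ones, so these counts depend on the factors. The 44 genes included 11 of the first 20 in the ranking and 7 of the last 50, and their highest mean at 27 weeks was 136 CPM, so none of the most abundant genes was among them. Of the 20 genes with a younger mean of at least 100 CPM, 0 were among the 44.

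**Figure D3:**
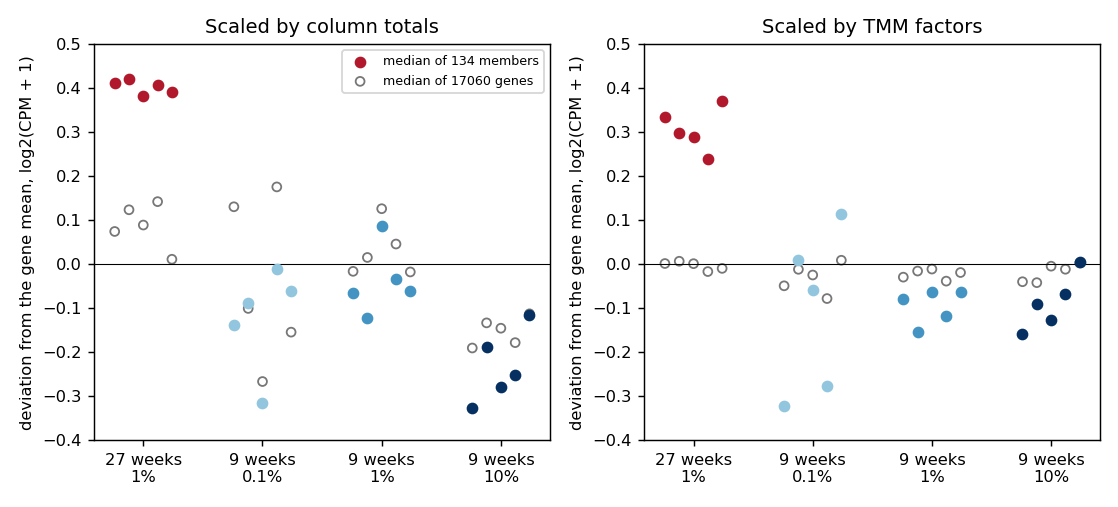
Median deviation from the gene mean, in log2(CPM + 1), for the 134 genes (filled) and for 17060 genes (open) in each library, scaled by column totals (left) and with TMM factors (right). The 134 genes lie between 0.24 and 0.37 at 27 weeks with TMM factors and at most at 0.11 at 9 weeks, and the medians of all genes move close to 0.

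Single libraries set the length of the list. Without replicate 1, 2, 3, 4 or 5 at 27 weeks, 182, 164, 196, 158 or 237 genes met the same criterion over the remaining 19 libraries. Without a single library at 9 weeks the counts ran from 134 to 196, the most without replicate 4 at 1%. Dropping a library can only loosen the separation, while the mean of at least 1 CPM is then taken over the remaining libraries and can move either way. The 134 genes were among those found each time, and these counts say how many more genes that library kept out. With column totals replicate 5 at 27 weeks kept out the most. This depended on the scaling. With TMM factors 83, 81, 90, 75 and 73 genes met the criterion without replicates 1 to 5 at 27 weeks, against 53 with all libraries. Replicate 3 then kept out the most and replicate 5 the fewest of these 5. Other differences between the age groups, such as rearing or preparation, cannot be told apart from age.

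Set against each younger group in turn with edgeR, which uses TMM factors, the 134 genes had median log2 changes of 0.43 against 0.1%, 0.43 against 1% and 0.42 against 10%, where all genes tested had -0.05, -0.02 and -0.03. All 134 passed the filter on low counts. Against 9 weeks at 1%, 55 genes were called higher and 0 lower (adjusted p under 0.05), where 2.08% of all genes tested were called higher and 2.4% lower. Against 0.1% the counts were 67 and 0, where 5.42% and 7.84% of all genes were called, and against 10% they were 68 and 0, where 3.19% and 5.27% were. The 0.1% libraries were deposited in a separate count table, so age, dose and table differ together in the comparison with 0.1%. The rule used these contrasts, which also share the 27-week libraries, and nothing is read from the counts. Called against all 3 groups were 26 genes, and 33 were called against none. No share over all genes is given for these combinations, and nothing is read from them. In the comparison with 10%, 3 of the 134 genes had a fitted change at or below 0.

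These counts rested on single libraries, and so did those over all genes. At 1%, leaving out replicates 1 to 5 of the older fish turned the count of 55 into 7, 5, 15, 32 and 5. Leaving out replicates 1 to 5 of the younger fish turned it into 24, 1, 62, 32 and 33. Over all genes tested the share called in either direction, 4.49% with all libraries, moved in the same direction. It was 0.504%, 0.327%, 1.37%, 2.46% and 0.279% without each older library. Without each younger library at 1% it was 1.75%, 0.0911%, 9.43%, 2.32% and 2.58%. The median log2 change of the 134 genes stayed between 0.41 and 0.45 whichever of the 10 libraries at 1% was left out. Against 0.1% the 67 became 40 and 44 without replicates 2 and 5 at 27 weeks, 44 without replicate 1 at 0.1%, and 34 without both libraries that stand apart, where 4.95%, 7.67%, 7.25% and 8.25% of all genes were called. The count rose to 71 and 85 without replicates 2 and 5 at 0.1%, where 14.7% and 14.9% of all genes were called. Against 10% the 68 became 41, 45, 44 and 35 without replicates 1, 2, 3 and 5 at 27 weeks, and 43 without replicate 3 at 10%, where 4.48%, 3.54%, 3.49%, 2.65% and 6.8% of all genes were called.

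Few of these genes were called between doses of rotenone at 9 weeks by edgeR. Between 10% and 1%, 2 genes were higher and 4 lower at 10%, or 4.48% of 134 in all (edgeR, adjusted p under 0.05). Of 18473 genes tested 9.11% were called in all, 4.22% higher and 4.88% lower. Between 1% and 0.1%, 5 were higher and 2 lower at 1%, or 5.22% in all, where 8.43% of 18808 genes were called higher and 10% lower. Between 10% and 0.1%, 0 genes were called by edgeR, where 0% of all genes were. In that comparison 7 of the 134 were higher at 10% and 0 lower at an unadjusted p under 0.05, where 9.3% of all genes were higher and 11.2% lower, and DESeq2 called 3, all higher at 10%, where it called 4.85% of all genes. The 0.1% group was deposited in a separate count table, so dose and table cannot be told apart in both dose comparisons with 0.1%. The rule caps the highest of the younger libraries and so prefers genes with little spread among them, and the low shares are not read as a property of the genes. Median log2 changes of the 134 genes were 0.00, -0.03 and 0.00 over these 3 steps, where those of all genes were 0.04, -0.04 and 0.00.

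In all 10 genes changed at a dose step, and 3 changed at both, each of them higher at 1% than at both other doses. Both steps use the same 1% libraries, which favours calls at both in genes that differ at 1%. No share over all genes is given for a call at either step or at both, and nothing is read from these counts. Of the 3, the gene ranked 11 had the largest changes at both steps. It had 7.85, 12.3, 13.4, 13.54 and 15.7 CPM at 10%, against 26.7, 27.2, 25.6, 29.8 and 15.8 CPM at 1%. At 0.1% it had 16.4, 11.7, 13.3, 16.7 and 13.2 CPM, and at 27 weeks 32.7, 33.1, 39.7, 37.7 and 39.8 CPM. Replicate 5 was low among the 1% libraries, near the levels of the other doses, and the remaining 4 libraries lay between those and the older fish. The log2 change was -0.77 for 10% against 1% (SE 0.18, edgeR adjusted p = 0.0202) and 0.73 for 1% against 0.1% (SE 0.16, edgeR adjusted p = 0.00571). The genes ranked 25 and 41 had the same order of means with smaller changes. At rank 25 the edgeR adjusted p was 0.0129 for 10% against 1% and 0.0291 for 1% against 0.1%. For the gene ranked 25, replicates 1 and 4 at 0.1%, which stand apart, had 30.3 and 31.6 CPM. Those values lay within its range at 1%, 24.6 to 37.0 CPM. The genes ranked 11, 25 and 41 were not called for age at 1% (edgeR adjusted p = 0.107, 0.0996 and 0.108). For the gene ranked 41, means were 35.1 ± 5.33 CPM at 10% against 52.8 ± 6.40 CPM at 1% (log2 change -0.37, edgeR adjusted p = 0.0389), with 38.2 ± 4.56 CPM at 0.1% and 66.8 ± 2.87 CPM at 27 weeks (SD, n = 5 each).

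The other called genes changed at 1 step. Higher at 1% than at 0.1% were the genes ranked 14 and 59, with means of 4.17 ± 1.09 against 2.16 ± 0.384 CPM and of 43.0 ± 2.71 against 30.3 ± 2.26 CPM (SD, n = 5 each). Lower at 1% than at 0.1% were those ranked 65 and 82, and lower at 10% than at 1% was that ranked 31. Higher at 10% than at 1% were 2 genes low in the ranking, 120 and 131, by 0.39 and 0.42 on the log2 scale. Counts of dose calls also moved with single libraries. For 10% against 1% the 6 became 2 and 3 without replicates 2 and 4 at 1%, and 3 without replicate 2 at 10%, where 3.44%, 3.7% and 5.41% of all genes were called. For 1% against 0.1% the 7 became 3 without replicate 4 at 0.1% and 2 and 4 without replicates 1 and 2 at 1%. Without both libraries that stand apart it was 8, with 3 higher and 5 lower. Of all genes, 12.2% to 12.8% were called in these 4 fits.

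**Figure D4:**
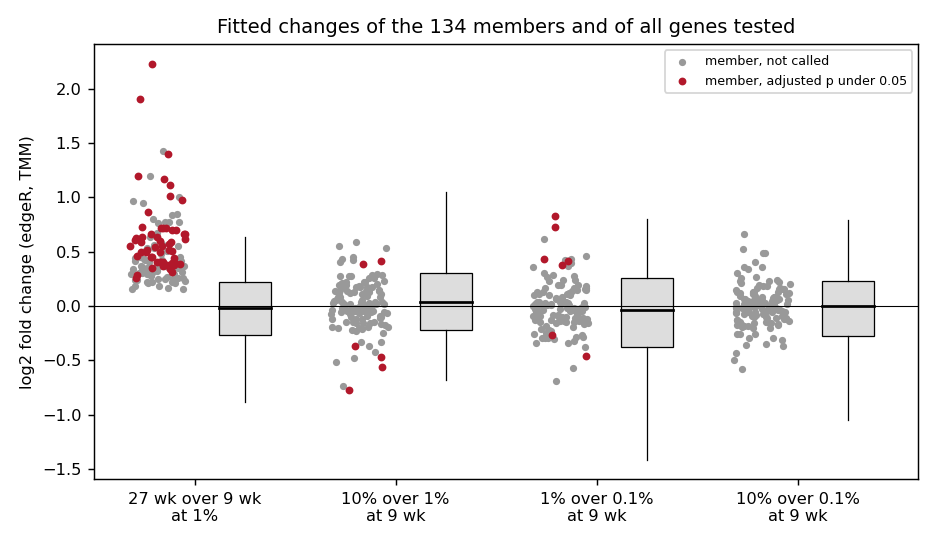
Fitted log2 changes (edgeR with TMM factors, y axis) of the 134 genes (points, red where the adjusted p was under 0.05) beside all genes tested (box: quartiles and median, whiskers: 5th to 95th percentile) for age at 1% and for 3 dose steps at 9 weeks. The 134 genes have a median of 0.43 for age, which chose them, and of 0.00, -0.03 and 0.00 for the dose steps, with 6, 7 and 0 genes called.

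Which dose had the lowest mean depended on the scaling. With column totals the 10% group was the lowest of the 3 doses in 97 of the 134 genes (72.4%), where it was the lowest in 48.9% of 17060 genes. With TMM factors it was the lowest in 38 (28.4%), where it was in 24.8% of all genes, and each dose was the highest in 43 to 46 of the 134. Among the 44 genes that stayed separated with TMM factors, the 10% group was the lowest in 21 (47.7%). The 1% group was the highest in 20 of these 44 (45.5%), where it was in 34.1% of all genes. For the 134 genes the range of the 3 dose means had a median of 0.19 log2(CPM + 1) with TMM factors, against 0.37 over all genes. The mean at 27 weeks exceeded the highest dose mean by more than that range in 100 of the 134 genes (74.6%), where it did in 6.96% of all genes, a contrast that the rule itself favours.

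Between libraries of a group the 134 genes varied less than other genes in each of the 4 groups, which the rule favours. With TMM factors the median SD of log2(CPM + 1) was 0.13 at 27 weeks, and 0.26, 0.17 and 0.16 at 0.1%, 1% and 10%, where over all genes it was 0.20, 0.33, 0.27 and 0.24. Which younger libraries were low depended on the scaling. With TMM factors replicates 1 and 4 at 0.1% were the lowest, with a median deviation of -0.32 and -0.28, and replicate 5 at 0.1% the highest at 0.11. With column totals those 3 lay at -0.14, -0.01 and -0.06, and the lowest were replicate 1 at 10% and replicate 3 at 0.1%, at -0.33 and -0.32. With TMM factors the mean pairwise correlation of the genes' deviations from group means was 0.269 over the 15 younger libraries, where it was 0.00441 over all genes, and 0.169 among the 44. With column totals it was 0.204 against 0.105. Over the 5 libraries at 27 weeks it was 0.145 against 0.00241 with TMM factors, and 0.0308 against 0.0352 with column totals. Genes in these correlations share libraries and scaling factors, and with TMM factors a gene steady as a share of all reads moves with the inverse of the factor. With column totals the highest younger library was most often replicate 3 at 1%, for 28 genes (20.9%, where it was for 8.04% of all genes), followed by replicate 4 at 0.1% for 22. With TMM factors replicate 3 at 1% (factor 1.11) reached the lowest library at 27 weeks in 0 of the 90 overlapping genes. Replicate 5 at 0.1% (factor 0.880) did so in 51. Only a younger library with a factor below that of a 27-week library, 1.02 to 1.13, can do so. These counts are therefore not read as properties of the libraries.

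The 134 genes were more abundant than the genes they were chosen from, and longer except at low levels. Their median level at 9 weeks was 28.3 CPM against 14.1 CPM, and per length their median at 27 weeks was 13.7 RPKM against 5.78 RPKM. The mean of at least 1 CPM is part of the rule, and low counts vary more, so abundance is not independent of the choice. Over all levels the median gene length was 3757 bases for the 134 genes, and 2769 bases for the 16908 genes with a length. At a like level the lengths differed less, or the other way: below 10 CPM at 9 weeks the medians were 1781 against 1966 bases, from 10 to 100 CPM 4067 against 3385 bases, and from 100 CPM 4063 against 3562 bases. Of the longest quartile of genes, from 4750 bases, 51 were among the 134 (1.21%), and in the other 3 quartiles 29, 27 and 27 (0.686%, 0.639% and 0.639%). The 44 genes that stayed separated with TMM factors had a median of 2677 bases and fell into the quartiles as 11, 12, 10 and 11 from the shortest up. Without matching for level, the excess of long genes was thus found among the 90 whose groups overlapped with TMM factors, with a median of 3953 bases. By level at 9 weeks the 44 fell as 15 below 10 CPM, 29 from 10 to 100 CPM and 0 from 100 CPM, and the 134 as 32, 82 and 20. Whether level accounts for the difference in length between the 44 and the 90 was not tested. Over all genes the median difference between ages was 0.13, 0.12, 0.13 and 0.13 log2(CPM + 1) from the shortest quartile to the longest.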

How the data were processed

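The 20 skin libraries were TruSeq RNA preparations, per the labels. Tools listed in the submitters' processing notes are featureCounts 1.4.6-p4, STAR 2.4.1d and CASAVA 1.8.2. Genome build, annotation and strandedness were not given in the sources used here. Counts were deposited by the authors as whole numbers for each gene, in 2 tables, of which the second holds the 0.1% libraries. The RPKM values deposited by the authors were used only for gene length. Of the count columns 10 match no sample described here, and of the RPKM columns 9; they were not used.

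The members and lists were chosen with earlier results of these data known. Genes had to have a mean CPM of at least 1, with a pseudocount of 1. The printed identifiers are the largest difference and, among the rest, the highest mean at 27 weeks; genes given by rank were picked after their values were seen. Marker genes could not be looked up without names. Tests used edgeR 4.0.16 in R 4.3.3 (TMM, filterByExpr, glmQLFit, glmQLFTest, two-sided, Benjamini-Hochberg over all genes tested), with 15 libraries of the first table, or all 20 where 0.1% entered. SEs were derived from the F statistic. DESeq2 1.42.0 was an alternative, as were RLE factors, other filters and pseudocounts, fits of 10 libraries, and leaving out each library. Fits were tested on simulated data. Lengths were solved from the ratio of count to RPKM. Overlapping genes and close copies were not resolved.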

Additional observations from a re-analysis of the deposited data

How the results depend on the processing

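The choice of genes depended most on scaling: 53 genes met the rule with TMM factors and 45 with RLE factors, and 44 and 40 of these were among the 134; the cause was not tested beyond the shift of all genes given above. Pseudocounts of 0.1 and 5 left all 134, and a mean of at least 5 CPM left 120 higher and 17 lower genes. Fewer young libraries loosen the separation by construction. Without both 0.1% libraries that stand apart, 268 genes were higher and 46 lower. With the 10 young libraries of the first table, 384 were higher and 63 lower. Leaving out 1 library gave 134 to 237 higher genes (134 to 200 with the limit of 200) and 27 to 62 lower ones, with 49, 62 and 44 lower genes without replicates 1, 3 and 4 at 27 weeks and 44 without replicate 4 at 0.1%. Without the 10 genes that take most reads, the summed share was 0.697% at 27 weeks, and 0.472%, 0.490% and 0.432% at 0.1%, 1% and 10%.

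For calls among the 134, DESeq2 gave 13 for 10% against 1%, 3 for 10% against 0.1% and 101 for age at 1%, where it called 13.9%, 4.85% and 10.8% of all genes. Fits of only the 10 libraries of both groups gave 2 for 10% against 1%, 1 for 1% against 0.1%, 10 for age at 1% and 34 for 27 weeks against 0.1%, where 2.59%, 6.42%, 0.572% and 6.17% of all genes were called, and all 20 libraries gave 36 for age at 1%, where 2.25% were. Without both libraries that stand apart 34 were called against 0.1%. Leaving out 1 library gave 2 to 8 for each of 10% against 1% and 1% against 0.1%, 0 to 0 for 10% against 0.1%, 1 to 62 for age at 1%, 40 to 85 against 0.1% and 35 to 59 against 10%. The cause of these moves was not tested. The uncalled log2 change of Nfu_g_1_022472 for 10% against 1%, -0.04, was 0.13 without replicate 3 at 1%, and 0.06 and 0.05 without replicates 2 and 3 at 10%, and ranged from -0.175 to 0.130 over the libraries left out. That of Nfu_g_1_012319 for 10% against 0.1%, 0.21, was -0.000837 without both libraries that stand apart. No paired analysis was possible because replicate numbers only name libraries and pair none across groups.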

Other observations

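The deposited RPKM values are not divided by 1 total per library. The ratio of count to RPKM was described by a gene length and 35 divisors that run down the rows of the tables, shifted from column to column, with a residual of 1.73e-06 log2. The divisors matched the totals of the 20 libraries with an SD of 4.93e-07 log2, where the next best alignment gave 0.123. Lengths solved in this way came within 0.1 bases of a whole number in 100% of 1244 genes checked, those under 2000 bases with at least 50 RPKM in a library. RPKM in the text are CPM per kilobase of these lengths. Comparing the deposited RPKM of 1 gene between libraries carries these divisors along, and they differ between neighbouring rows.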
